A study of Mus musculus with 63 samples.

Results

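The GABA-marked neurons described here were the 10 cells, of 63 sequenced, whose summed Gad1 and Gad2 level was above their summed Slc17a7 and Neurod2 level. Gad1 and Gad2 make GABA, whereas Slc17a7 and Neurod2 mark glutamatergic neurons. Members were chosen by these measured values, after cells LS_1, LS_2 and NS_1 had been set aside. A cell was also dropped when all of Gfap, S100b and Aqp4, all of Olig1, Olig2 and Mbp, or all of the 4 class markers were above 0. The criterion on Gad genes alone took 12 cells, and the last criteria removed LS_8 and NS_10. The 10 members were 4 of the 46 light-sensitive (LS) cells and 6 of the 17 non-light-sensitive (NS) cells.

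The study aspirated neurons in layer 2/3 of V1, the primary visual cortex, from wild type C57BL/6 mice aged 70 days, and per the study's methods the mice were adult males under light isoflurane anesthesia. Neurons were loaded with the calcium dye Cal-520 AM, and a neuron was LS when it answered most repeats of a drifting grating and NS when it answered none or a single one. The soma was then sucked into a glass pipette in vivo, and its RNA was amplified by Smart-seq2, which copies full-length transcripts of a single cell by PCR. The labels name no mouse and no collection day for a cell, so the 4 LS cells stand for 1 sample and the 6 NS cells for 1 sample. Differences between the groups are therefore given as sizes without a test, and an SD over cells describes their spread and not an error between animals.

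Cortical GABA neurons are a small and mixed population. Several subclasses are told apart by the peptides and calcium-binding proteins that they make. Somatostatin cells and parvalbumin cells derive from the medial ganglionic eminence and carry Lhx6 and Sox6. Cells with vasoactive intestinal peptide (Vip) derive from the caudal eminence, carry Adarb2 and Npas1, often co-express Crh, Tac2, Penk or Calb2, and mainly inhibit other interneurons. Neurogliaform cells are marked by Lamp5 and often by Npy.

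The level of the 2 Gad genes chose the members and is given as a description only. Gad1 stood at 47.6, 395, 63.2 and 9.25 FPKM (fragments per kilobase of exon and per 1000000 reads) in LS_9, LS_14, LS_15 and LS_39. In NS_6, NS_7, NS_11, NS_12, NS_13 and NS_16 it stood at 42.01, 18.6, 0, 120, 754 and 51.1 FPKM. Gad2 stood at 69.7, 297, 31.95 and 0 FPKM in the LS cells and at 81.4, 0, 33.1, 327, 588 and 324 FPKM in the NS cells, in the same order. The members nearest the threshold were LS_39, with 72 Gad reads, and NS_7, with 29 Gad reads, each against no read of the glutamatergic pair. Just outside lay NS_10, with 1 Gad read, and 8 cells without a read of any of the 4 genes. NS_16 carried 62 reads of the glutamatergic pair beside 1680 Gad reads.

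The label of neurons did not hold equally for all 10 cells. Of 20 genes used by neurons in general, LS_9, LS_14 and LS_15 had 18, 19 and 16 above 0, and NS_12, NS_13 and NS_16 had 13, 12 and 17. LS_39 had 11 of them, and NS_6, NS_7 and NS_11 had 7, 7 and 3. Snap25, a protein of synaptic vesicle fusion, was at 84.0, 246 and 67.6 FPKM in the first 3 LS cells and at 258, 845 and 80.8 FPKM in NS_12, NS_13 and NS_16. It was at 0, 1.66, 0 and 0 FPKM in LS_39, NS_6, NS_7 and NS_11. LS_39 also had 11 of 12 microglial markers above 0, against 2 to 6 in each other member. These 4 cells go against the label, so counts over most gene lists below are also given for the other 6 cells, a set chosen after the data were seen and partly by the genes of neurons in general.

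Depth and background differed between the groups. The LS cells held between 369522 and 1375912 reads on the listed genes, and the NS cells between 146747 and 879429. Genes above 1 FPKM numbered 7002, 5608, 5426 and 2207 in the LS cells and 3754, 4588, 2063, 2979, 1934 and 3499 in the NS cells. The means were 5061 ± 2029 (SD, n = 4 cells) and 3136 ± 1024 (SD, n = 6 cells), and the groups overlapped. Sensory receptor genes of the nose and tongue, which neurons of the cortex hardly use, were taken as an index of reads that do not come from spliced mRNA of the cell. Their mean level was 82.1%, 80.0% and 88.4% of an even spread of reads over all exons in NS_6, NS_7 and NS_11. It was 12.2%, 3.38% and 2.33% in NS_12, NS_13 and NS_16, and 26.7%, 0.126%, 1.11% and 5.27% in the LS cells. The part of depth and of this background in the differences below was not tested.

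**Figure D1:**
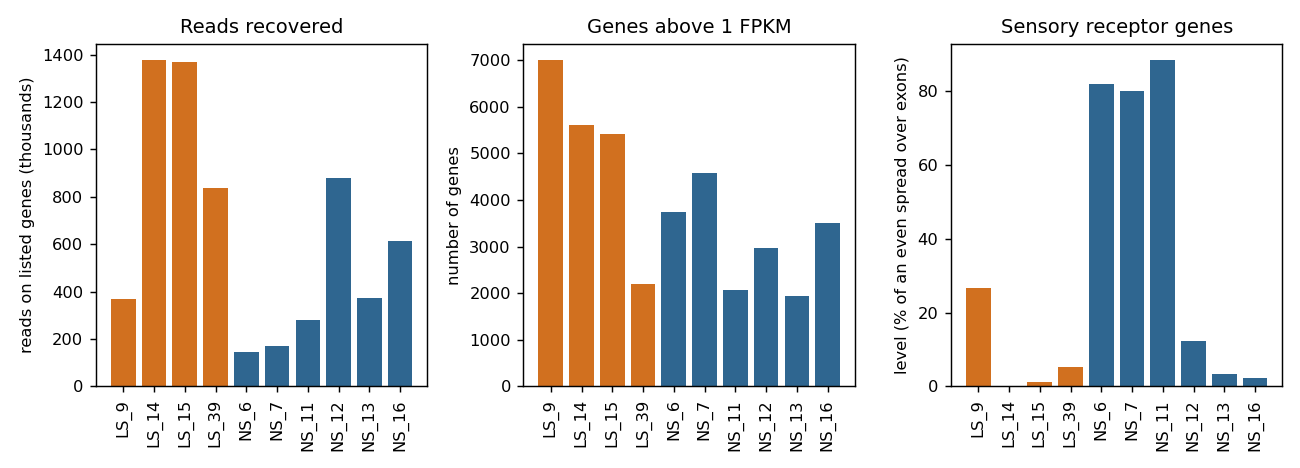
Reads recovered on the listed genes (in units of 1000), genes above 1 FPKM, and the level of sensory receptor genes (percent of an even spread over exons) in each GABA-marked cell, with LS cells in orange and NS cells in blue. NS_6, NS_7 and NS_11 stand above 80.0% in receptor genes, and LS_9 has the most genes, 7002.

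Peptide genes of the Vip class were found mainly in LS cells. Vip itself (chromosome 10, 5639218 to 5647617, plus strand, GRCm38) was at 36.1, 0, 5266 and 211 FPKM in the 4 LS cells and listed at 0 in all 6 NS cells. Penk, the enkephalin precursor (chromosome 4, 4133531 to 4138819, minus strand), was at 0, 990, 1120 and 48.0 FPKM in the LS cells and had no read in the NS cells. Crh, corticotropin-releasing hormone, was at 0, 112, 372 and 0.743 FPKM in the LS cells, again with no NS read. LS_15 was the highest LS cell for each of these genes, and LS_14 lacked Vip while carrying Penk and Crh.

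Reads summed over cells give a lower bound where a group has no read, set against 3 reads over that group. Penk reached 1449 counts per 1000000 reads (exact Poisson interval at 95% from 1412 to 1487) in the LS cells, at least 1188-fold higher than in the NS cells. The corresponding bound was 218-fold for Crh and 145-fold for Cck, the cholecystokinin gene. Such intervals cover counting error only, and because PCR copies carry no molecular identifier they are too narrow. No read count could be recovered for Vip. A gene without a read in all 6 NS cells could still have a read in up to 45.9% of such cells by an exact binomial interval, and the same bound for 4 LS cells is 60.2%. These bounds treat cells as independent draws, although cells may share animals, and a cell without a read in a shallow library can still express the gene.

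Other genes of the class were less one-sided. Tac2, the neurokinin B gene, was at 32.4, 140, 537 and 44.4 FPKM in the LS cells and at 249 FPKM in NS_16, with 0 in the other 5 NS cells. Cck was at 379 and 516 FPKM in LS_9 and LS_15 and at 0 elsewhere. Htr3a, a serotonin-gated channel typical of caudal interneurons, was at 0, 167, 18.4 and 10.8 FPKM in the LS cells and at 7.59 FPKM in NS_13 alone among the NS cells. Calb2, the calretinin gene, was at 358 FPKM in LS_14 and at 47.2 and 23.96 FPKM in NS_6 and NS_7. Its log2 ratio of 2.82 turned to -3.69 without LS_14. Chat, the enzyme that makes acetylcholine, was found in NS_12 alone, at 242 FPKM.

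Group ratios are given as log2 of the mean LS level plus 1 FPKM over the mean NS level plus 1 FPKM, and a gene counted as higher in a group when this ratio passed 2.5 in either direction. Of 10099 genes with a mean of at least 5 FPKM in either group, 2820 (27.9%) were higher in LS and 2898 (28.7%) higher in NS by this limit, and the median ratio over all of them was -0.18. All 10 genes of the Vip class reached the level, 6 of them were higher in LS, 1 was higher in NS, and their median ratio was 3.64. That median was the same when Penk, Crh, Cck and Chat, each without a read in a whole group, were set to their bounds, with Vip left at its ratio. In the 6 cells that fit the label, 3949 of 8408 genes (47.0%) were higher in LS and 1419 (16.9%) higher in NS, and the median over all of them was 2.05. There the Vip class had 6 genes higher in LS and 2 higher in NS, with a median of 5.53.

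The strongest peptide signals of the NS cells were of other subclasses, and the highest value of each came from a single cell. Sst, the somatostatin gene (chromosome 16, 23889573 to 23890958, minus strand), was at 9164 FPKM in NS_16 and at 0 in the other 9 cells, which made it at least 2153-fold higher in the summed NS reads. Npy, neuropeptide Y, was at 6336 FPKM in NS_12, at 179 and 164 FPKM in NS_6 and NS_16, and at 284 FPKM in LS_14. Its log2 ratio of -3.95 became 0.05 without NS_12. Lamp5 was at 109 and 53.1 FPKM in NS_12 and NS_13, at 0.335 FPKM in LS_39 and at 0 in the other 7 cells. Pvalb, the parvalbumin gene, was at 0 in all 10 cells.

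Cxcl14 and Id2 of the neurogliaform list were higher in LS among the cells that fit the label. Cxcl14, a chemokine gene, was at 147, 454 and 364 FPKM in LS_9, LS_14 and LS_15 and at 0 in LS_39 and all NS cells but NS_6, which had 275 FPKM. Id2, an inhibitor of helix-loop-helix factors, was at 175, 176 and 208 FPKM in the same 3 LS cells and at 7.52, 1.78 and 0 FPKM in NS_12, NS_13 and NS_16. NS_11 was the highest cell for Id2, at 398 FPKM. Over the neurogliaform list 1 gene was higher in LS and 2 were higher in NS among 6 that reached the level, of 9 listed, with a median of 0.81, and these shares were near those of all genes. Among the 6 cells 4 and 2 of 6 were, beside 47.0% and 16.9% of all genes, with a median of 3.61 against 2.05.

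**Figure D2:**
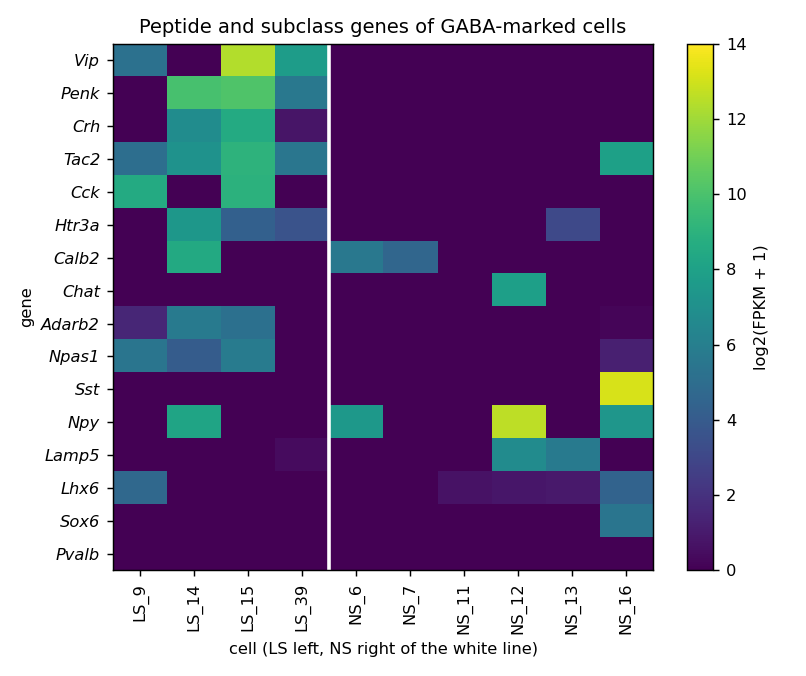
Level of peptide and subclass genes as log2(FPKM + 1), by colour, with 1 row per gene and 1 column per cell. Vip, Penk and Crh are filled in LS columns only, Sst in NS_16 only, and the highest Npy value lies in NS_12.

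Genes that mark the interneuron lineages followed the same cells only in part. Adarb2, an RNA-binding protein of caudal interneurons, was at 1.82, 54.6, 35.3 and 0 FPKM in the LS cells and at 0.141 FPKM in NS_16 alone among the NS cells. Npas1 was at 42.1, 15.8, 55.5 and 0 FPKM in the LS cells and at 1.31 FPKM in NS_16 only. In LS_9, LS_14 and LS_15, both genes were above every NS cell. Lhx6, the medial eminence factor, was at 25.2 FPKM in LS_9 and 21.03 FPKM in NS_16, and at or below 0.939 FPKM in the rest. Sox6 was found in NS_16 alone, at 42.7 FPKM. NS_16 thus carried Sst, Lhx6 and Sox6 together, while LS_9, the highest cell for Lhx6, also carried Npas1. Dlx1, a homeobox gene of GABA neurons, was at 2.86, 173, 3.94 and 0 FPKM in the LS cells and at 0, 0, 0, 55.4, 5.44 and 1.27 FPKM in the NS cells. Over the 17 listed factors, 11 reached the level, of which 3 were higher in LS, near the 27.9% of all genes, and 4 in NS, beside 28.7%, with a median of 0.58. Over the 6 cells 4 and 4 of 13 were, beside 47.0% and 16.9%, with a median of 1.06.

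Genes that handle GABA showed no common direction. All 7 listed genes reached the level, 1 was higher in LS and 2 were higher in NS, beside 27.9% and 28.7% of all genes. The median ratio was 0.21. In the 6 cells 2 and 1 of the 7 were, beside 47.0% and 16.9% of all genes, and the median was -0.43. Slc32a1, the vesicular GABA transporter, was at 194 FPKM in NS_11, 20.5 FPKM in NS_16, 9.22 FPKM in LS_14 and 1.30 FPKM in LS_15. The ratio of Slc32a1 was -3.34 over the group means, 0.72 over the group medians, and -0.80 in the 6 cells.

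The 30 LS cells that were glutamate-marked under the same criteria served as a reference for these genes. None of the 30 had Vip above 0 (exact binomial upper bound 11.6%, under the same assumption), 1 had Sst, 2 had Crh and 2 had Npy. Penk was above 0 in 12 of the 30, with a maximum of 2137 FPKM, and Cck in 29 of 30 with a median of 1191 FPKM. Lamp5 was above 0 in 29 of the 30, with a median of 72.2 FPKM. Cck, Lamp5 and Penk were therefore also present in glutamate-marked cells of the series, whereas Grik1, a kainate receptor subunit, had no read in any of the 30.

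Immediate-early genes are switched on within minutes of strong neuronal activity, and most encode transcription factors. In the GABA-marked cells they were high in LS_15 and LS_39, intermediate in LS_14 and low in LS_9. Fos (chromosome 12, 85473890 to 85477273, plus strand) was at 0, 394, 6175 and 12613 FPKM in the LS cells and at 0, 2.08, 0, 503, 1.92 and 430 FPKM in the NS cells. The highest NS cell exceeded both LS_9 and LS_14, so the groups overlapped. Nr4a1, a nuclear receptor, was at 0, 321, 1136 and 1992 FPKM in the LS cells, and NS_12 and NS_13 were the NS cells with any, at 0.772 and 0.912 FPKM. Ier2 was at 727 and 654 FPKM in LS_15 and LS_39 and had no read elsewhere, a summed level at least 588-fold higher in LS.

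Partners of Fos and related genes were also highest in LS_15 or LS_39. Junb was at 38.3, 171, 1385 and 1795 FPKM in the LS cells and at 0, 5.32, 37.4, 0, 1.23 and 220 FPKM in the NS cells. Jun was at 28.3, 11.9, 377 and 495 FPKM in the LS cells, and NS_11, at 237 FPKM, was the highest NS cell. Fosb reached 731 FPKM in LS_39 and 124 FPKM in NS_16. Btg2, an antiproliferative gene, was at 4.02, 6.04, 278 and 190 FPKM in the LS cells and at 15.9 FPKM in NS_16 alone among the NS cells. Dusp1, a phosphatase that turns off MAP kinases, was at 0, 40.05, 921 and 205 FPKM in the LS cells and at 34.004 and 79.0 FPKM in NS_12 and NS_16. Cyr61 was at 27.96, 182 and 140 FPKM in LS_14, LS_15 and LS_39 and at most 1.48 FPKM in the NS cells. Klf4 was at 186 FPKM in LS_15, 2.82 FPKM in LS_14 and 2.51 FPKM in NS_12.

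Members of the Egr family and of the dendritic group differed from this pattern. Egr1 was at 11.3, 853, 1809 and 5365 FPKM in the LS cells and at 0, 63.3, 0.667, 386, 58.9 and 1880 FPKM in the NS cells, and NS_16 exceeded 3 of the 4 LS cells. Egr3 was at 50.3 FPKM in LS_14 and 152 FPKM in NS_7. Egr4 was at 287 FPKM in NS_7 and 3.39 FPKM in LS_15, and its log2 ratio of -4.72 became 0.89 without NS_7. Arc, which acts at synapses, and Npas4, an activity-dependent factor, were at 0 in all 10 cells. Among the 30 glutamate-marked LS cells, Arc was above 0 in 11 and Npas4 in 8.

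Of 27 listed immediate-early genes, 25 reached the level, 13 were higher in LS and 1, Egr4, higher in NS, beside 27.9% and 28.7% of all genes. Their median log2 ratio was 2.59, or 2.42 with the 2 genes at 0 in one group set to their bounds. In the 6 cells that fit the label, 23 reached the level, 15 were higher in LS and 0 higher in NS, beside 47.0% and 16.9% of all genes, with a median of 3.03 against 2.05 over all genes. No test was made, since each group is 1 sample, and the NS count of 0 has no p-value behind it. Averaged over the list as log2(FPKM + 1), the LS cells stood at 1.33, 3.19, 5.72 and 4.91 and the NS cells at 1.04, 1.95, 0.786, 1.53, 0.432 and 2.75. Only LS_9 lay within the NS range. The corresponding mean was 3.79 ± 1.95 (SD, n = 4 cells) in GABA-marked and 3.78 ± 1.38 (SD, n = 30 cells) in glutamate-marked LS cells. In NS cells it was 1.42 ± 0.85 (SD, n = 6 cells) when GABA-marked, and 3.22 and 3.48 in the 2 that were glutamate-marked, whose receptor-gene level was 40.99% and 94.2%.

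Both gene groups hold members whose start sites carry the core of the cyclic AMP response element, the binding site of CREB. The motif TGACGT was searched on both strands in the 250 bases before each RefSeq start (GRCm38.p6), where its longer form TGACGTCA contains it on both strands. It was present in 6.47% of 32851 start windows, and the longer form in 1.55%. Of the immediate-early genes, 21 had a window and 11 of them held the motif, 3 in the longer form. Of the Vip class, 2 of 6 held it, of the somatostatin class 1 of 7, and of the neurogliaform list 0 of 6. These are counts of genes, and a gene can have more than 1 start window. They are therefore not directly comparable with the shares of windows. Sites also lay before Egr4, which was higher in NS, before Npas4, at 0 in every member, and before Chat, found in NS_12 alone. The sites of Vip, Sst, Fos and 2 further immediate-early genes are shown as examples, as 30 bases 5′ to 3′ with the match in capitals. Of these examples, Vip, Fos, Btg2 and Dusp1 were higher in LS, and Dusp1 fell within the limit when LS_8 and NS_10 were kept.
Vip (chr10:5639127-5639156, plus strand): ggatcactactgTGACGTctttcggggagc
Sst (chr16:23890874-23890903, minus strand): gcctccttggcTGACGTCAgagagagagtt
Fos (chr12:85473812-85473841, plus strand): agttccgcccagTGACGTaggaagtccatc
Btg2 (chr1:134079303-134079332, minus strand): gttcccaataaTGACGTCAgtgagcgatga
Dusp1 (chr17:26508597-26508626, minus strand): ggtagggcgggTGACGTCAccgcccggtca
The match begins 79 bases before the RefSeq start in Vip, 48 in Sst, 66 in Fos, 166 in Btg2 and 143 in Dusp1. The RefSeq start used for Sst lies inside the gene span given above, and so does its site. Vip and Fos carry the 6-base core, and Sst, Btg2 and Dusp1 the 8-base form. Sst was at 0 in every LS cell, so genes with the motif were not all higher in LS. A match describes the letters of the window and does not show that a factor binds there.

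Over all genes, most calls rested on few cells. Of the 2820 genes higher in LS, 953 (33.8%) were above 0 in 1 LS cell and 336 (11.9%) in all 4. Of the 2898 genes higher in NS, 1446 (49.9%) were above 0 in 1 NS cell and 14 (0.483%) in all 6. NS_6, NS_7 and NS_11 were the highest NS cell for 741, 776 and 489 of these genes, and NS_12, NS_13 and NS_16 for 370, 277 and 245. Among LS cells, LS_9 was highest for 941 genes and LS_39 for 601. When levels were averaged as log2(FPKM + 1), which weights a single high cell less, 1472 genes were higher in LS and 143 in NS.

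**Figure D3:**
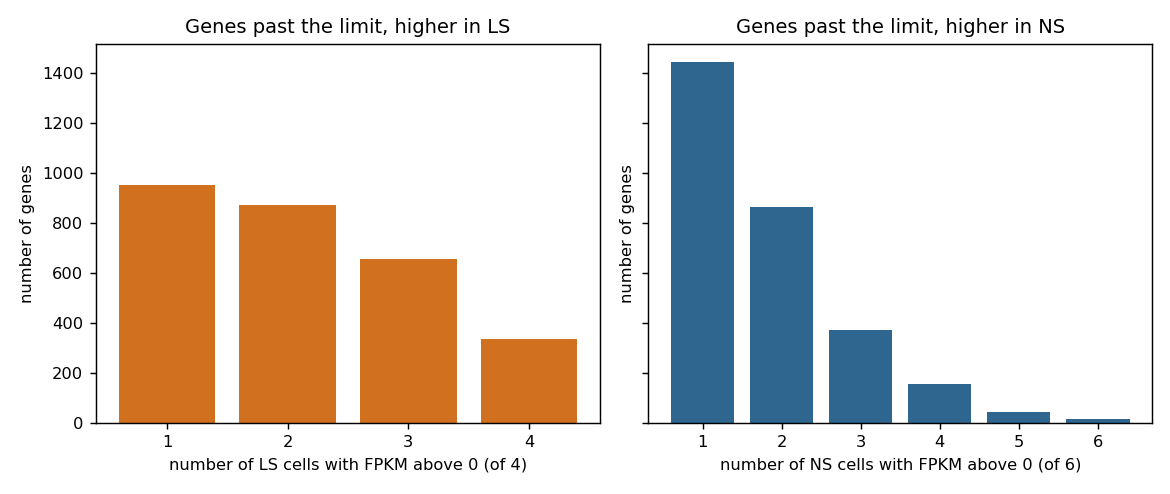
Number of genes past the log2 limit of 2.5 (vertical axis) by the number of cells of the higher group with FPKM above 0 (horizontal axis), for genes higher in LS (left) and in NS (right). The left bars run from 953 genes in 1 cell to 336 in 4, and the right bars from 1446 genes in 1 cell to 14 in 6.

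A gene can also be read by whether the groups overlap. Every LS cell was above every NS cell for 181 genes (1.79% of those tested), and every NS cell above every LS cell for 2 genes (0.0198%). Within the 6 cells that fit the label these were 853 (10.1%) and 65 (0.773%). The 2 genes higher in every NS cell were Supt20 and PISD, named after their values were seen. Supt20, a part of the SAGA complex, was at 0 in all LS cells and at 31.4, 23.4, 6.21, 14.2, 14.4 and 10.7 FPKM in the NS cells.

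The largest LS ratios, among genes above 0 in at least 3 of 4 LS cells, were those of Vip, Nr4a1, Ifitm3, Apod, Penk, Nbl1, Ifitm2, Mgp, Zfp36l1 and Id3. Ifitm3, an interferon-induced membrane protein, was at 500, 21.7, 439 and 1410 FPKM in the LS cells with no read in the NS cells, at least 341-fold higher. Ifitm2, its neighbour in the same family, was at 278, 0, 970 and 707 FPKM, also without an NS read. These near-identical family members can share reads, so their separate values are uncertain. Zfp36l1, which promotes decay of AU-rich mRNAs, was at 452, 1.44, 893 and 296 FPKM, at least 1225-fold higher in summed reads, but its log2 ratio of 8.69 became 0.85 when LS_8 and NS_10 were kept. Nbl1, a secreted antagonist of BMP signals, was at 0, 108, 921 and 1081 FPKM, and Id3, a target of BMP signals, at 0, 105, 190 and 1675 FPKM in LS cells. Mgp, a secreted matrix protein, was at 58.9, 178, 2476 and 0 FPKM.

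These genes were not limited to the GABA-marked cells of the LS group. In the 30 glutamate-marked LS cells, Ifitm3 was above 0 in 26, Nbl1 in 27, Ifitm2 in 24, Zfp36l1 in 23, Mgp in 20, Id3 in 18 and Apod in 29.

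The largest NS ratios, among genes above 0 in at least 5 of 6 NS cells, were those of Megf6, Mink1, Stac2, Cbx6, Plch2, Hecw1, Cfap69, Garnl3, Atf6 and Ttyh3. Megf6, which encodes a protein with EGF-like repeats, was at 104, 34.8, 7.98, 43.5, 297 and 0 FPKM in the NS cells and at 1.12 FPKM in LS_9 alone among the LS cells. Mink1, a kinase, was at 293 FPKM in NS_11 and 68.0 FPKM in NS_16 and at 0.483 FPKM in LS_15. Stac2, which modulates calcium channels, was at 182 FPKM in NS_16 and 84.9 FPKM in NS_11, with no LS read, at least 274-fold higher in summed NS reads. Cbx6, a polycomb protein, was at 6.27, 35.8, 10.5, 175, 0 and 24.1 FPKM in the NS cells and at 1.84 and 0.780 FPKM in LS_15 and LS_39. Hecw1, a ubiquitin ligase, reached 29.8, 52.0 and 92.4 FPKM in NS_12, NS_13 and NS_16 against at most 1.09 FPKM in an LS cell. In the 6 cells the ratios of 9 of these genes stayed past the limit, between -3.22 and -6.38, and that of Cfap69 was -1.05. The genes were picked by ratios over cells that include these 6, so this is no separate evidence.

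Genes that nearly every cell uses had a higher mean level in the LS cells. Averaged as log2(FPKM + 1) over 19 such genes, the LS cells stood at 7.43, 8.16, 8.52 and 8.94 and the NS cells at 3.27, 3.89, 2.39, 6.45, 2.82 and 5.57, so the groups did not overlap. Of the 19 genes 8 were higher in LS and 0 in NS, beside 27.9% and 28.7% of all genes. Within the 6 cells that fit the label 6 were higher in LS with a median ratio of 1.48, below the 47.0% and the 2.05 of all genes. Every LS cell was above every NS cell for 3 of the 19, beside 1.79% of all genes. In the 6 cells this held for 5 of them, beside 10.1% of all genes. Eef1a1, a translation elongation factor, was at 620, 368, 841 and 1861 FPKM in the LS cells and at 205.5, 41.2, 3.602, 311, 2.71 and 127 FPKM in the NS cells. Actb, cytoplasmic actin, was at 1375, 657, 2621 and 4183 FPKM and at 433, 298, 4.47, 1124, 525 and 635 FPKM. Gapdh overlapped, at 445, 533, 480 and 837 FPKM in LS cells and at 4.09, 22.5, 147, 468, 609 and 496 FPKM in NS cells.

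Ribosomal protein genes also had the higher mean level in every LS cell. Of 84 such genes, 80 reached the level, and 30 were higher in LS and 0 in NS, beside 27.9% and 28.7% of all genes. In 14 of them every LS cell was above every NS cell, which held for 1.79% of all genes. The LS cells had 76, 78, 80 and 78 of the 84 above 0, and the NS cells 27, 38, 30, 67, 30 and 57. Within the 6 cells that fit the label, 28 of the 80 genes were higher in LS, below the 47.0% of all genes, and their median ratio of 1.36 was below the 2.05 of all genes. Every LS cell of these 6 was above every NS cell for 28 ribosomal protein genes, which held for 10.1% of all genes. Chaperones had 3 of 12 genes higher in LS, near the 27.9% of all genes, with a median of 2.05. Over these 6 cells 4 of 11 were, below the 47.0% of all genes, with a median of 1.83. Hspa8, the constitutive Hsc70 chaperone, was at 103, 445, 327 and 444 FPKM in LS cells and at 0, 2.36, 0, 154, 175 and 21.7 FPKM in NS cells. Glycolysis genes had 3 of 16 higher in LS, 1 higher in NS and a median of 1.10, and in the 6 cells 6, 1 and 0.87, where the first count was also below the share of all genes. Of 13 mitochondrially encoded genes 12 reached the level, and 0 of them passed the limit, with a median of 1.34, and 2 of them passed it in the 6 cells. Every LS cell was above every NS cell for 0 of the 12 over all 10 cells. In the 6 cells this held for 6 of them, beside 10.1% of all genes.

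**Figure D4:**
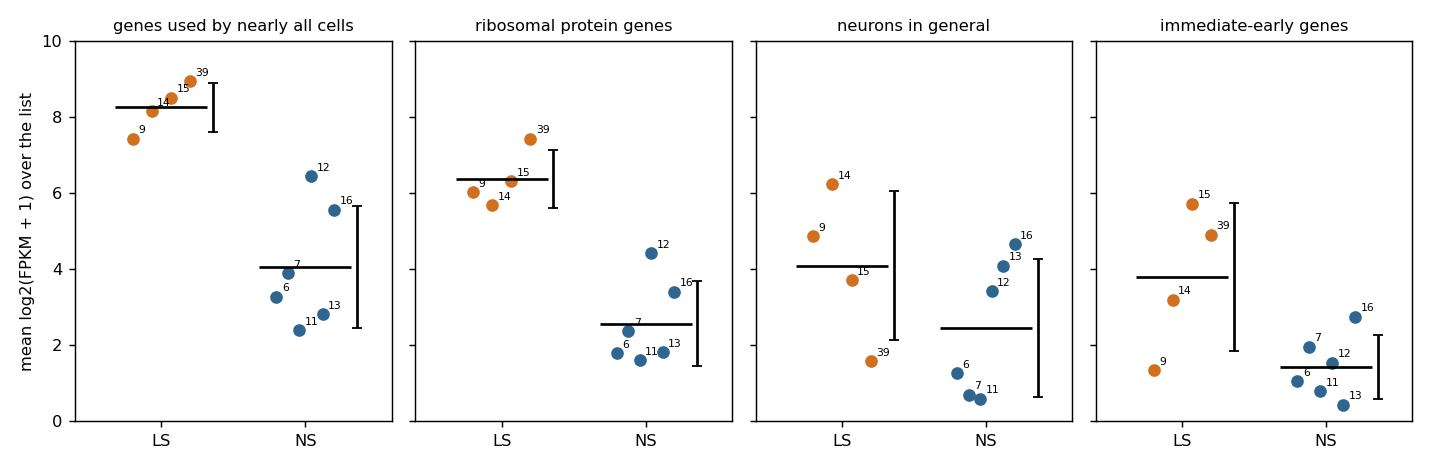
Mean log2(FPKM + 1) over 4 gene lists (vertical axis) for each GABA-marked cell, LS in orange and NS in blue, numbered by replicate, with the mean (line) and SD over cells (bar). LS cells lie above all NS cells for genes used by nearly all cells and for ribosomal protein genes, and the groups overlap for neuronal and immediate-early genes.

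The levels of neuronal genes overlapped between the groups. Of 20 genes used by neurons in general, 17 reached the level, 4 were higher in LS and 0 in NS, beside 27.9% and 28.7% of all genes. In the 6 cells 4 and 1 of 18 were, beside 47.0% and 16.9%, with a median of -0.27 against 2.05. Over all 10 cells the median ratio of the list was 0.34. It was -0.39 in cells with a receptor-gene level under 10%, where all genes had 2.65. It was 1.63 with means of log2(FPKM + 1) and 2.28 with group medians, where all genes had 0.58 and 0.09. Syt1, the calcium sensor of vesicle release, was at 160, 241, 58.1 and 2.12 FPKM in LS cells and at 1.35, 0.587, 1.44, 10.1, 248 and 285 FPKM in NS cells. Stmn3 was at 339, 788, 194 and 230 FPKM in LS cells and at 0, 0, 0, 1297, 203 and 0 FPKM in NS cells. The ratios of Syt1 and Stmn3 were 0.34 and 0.63 over group means, and 4.02 and 8.16 over group medians. Of 18 presynaptic release genes 0 were higher in LS and 1 in NS, with a median of 0.08, and in the 6 cells 1 and 1 with a median of 0.06. Each of these counts lay below the share of all genes in the same cells.

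Receptors of the 2 fast transmitters differed in direction over the group means. Of 12 GABA-A receptor subunit genes, 8 reached the level, 4 were higher in LS and 0 in NS, beside 27.9% and 28.7% of all genes, with a median of 1.82. Among the 6 cells 3 of 8 were higher in LS and 0 in NS with a median of 1.76, below the 47.0% and the 2.05 of all genes. Over all members the median was 1.46 with means of log2(FPKM + 1) and 2.32 with group medians. It was 0.005 over all 12 subunit genes without the filter on low values. In cells with a receptor-gene level under 10% it was 0.77, where all genes had 2.65. Gabra4 was at 7.97, 84.3, 13.9 and 0 FPKM in the LS cells and at 5.55 and 0.674 FPKM in NS_6 and NS_16.

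Of 16 ionotropic glutamate receptor genes, 12 reached the level, 0 were higher in LS and 5 in NS, beside 27.9% and 28.7% of all genes, with a median of -1.81 that became 0.05 with means of log2(FPKM + 1) and 1.28 with group medians. Grik1 was at 160, 1.56, 0, 0, 125 and 113 FPKM in the NS cells and at 0.702 FPKM in LS_9 alone, from 1 read, among the LS cells. Its log2 ratio was -5.84, and -1.85 with LS_8 and NS_10 kept. Gria1, an AMPA receptor subunit, was at 626 FPKM in NS_16, 4.48 FPKM in NS_13, 0 in the other 4 NS cells, and 1.82, 5.99, 6.03 and 0.649 FPKM in the LS cells. The ratio of Gria1 turned from -4.52 to 1.29 without NS_16. In the 6 cells 1 gene was higher in LS and 6 in NS among 13, beside 47.0% and 16.9% of all genes, with a median of -2.18.

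Channels and pumps that set excitability were mixed. Of 24 voltage-gated channel genes in the table, 17 reached the level, 1 was higher in LS and 5 in NS, the latter near the 28.7% of all genes, with a median of -1.55. Over the 6 cells 1 and 2 of 14 were, the latter near 16.9%, with a median of -1.25. Scn1a, the sodium channel of many interneurons, was at 0, 0, 0, 8.23, 43.1 and 87.1 FPKM in the NS cells and at most 1.53 FPKM in an LS cell. Scn2a1 was at 14.2, 35.1, 3.44 and 3.54 FPKM in LS cells and at 0, 1.54, 0, 0, 0.709 and 10.7 FPKM in NS cells. Hcn2, a pacemaker channel, was found in LS_9 and LS_15 only, at 50.3 and 38.8 FPKM. Of the 6 subunit genes of the sodium-potassium ATPase, 1 was higher in LS, Atp1b1, below the 27.9% of all genes, with a median ratio of 1.96, or 1.70 in the 6 cells. The ratio of Atp1b1 was 2.67, but 2.02 without LS_14, 2.10 in the 6 cells and 2.41 without NS_6, NS_7, NS_11 or NS_13. Atp1b1 was at 306, 571, 216 and 0.318 FPKM in LS cells and at 0, 0, 0, 229, 0 and 24.8 FPKM in NS cells.

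The study picked several genes from these cells and others of the series, so their direction here is no independent evidence. Of 7 such genes, 5 reached the level, 4 were higher in LS and 0 in NS, beside 27.9% and 28.7% of all genes. The counts were the same in the 6 cells, beside 47.0% and 16.9% of all genes. Fgf13, an intracellular partner of sodium channels, was at 10.4, 24.3, 0.151 and 169 FPKM in the LS cells with no NS read, at least 181-fold higher in summed reads. Prkag1, a subunit of the AMP-activated kinase, was at 30.9, 13.9, 27.1 and 129 FPKM in LS cells and at 1.17 FPKM in NS_12 alone among the NS cells. Every LS cell was above every NS cell for both genes, which held for 1.79% of all genes. For Fgf13 this rests on the 0.151 FPKM of LS_15, a cell in which 1 read over 1 kilobase is 0.730 FPKM. Nptxr was at 6.82, 18.3 and 0.470 FPKM in LS_9, LS_14 and LS_15. Pex3 was at 35.9 FPKM in LS_14 and 0.128 FPKM in LS_15, and Rgs7 at 1.33 and 3.26 FPKM in LS_14 and LS_39. None of these had a read in an NS cell. Rtn4r, the Nogo receptor, was at 0 in all 10 GABA-marked cells and above 0 in 27 of the 30 glutamate-marked LS cells. Chrm1, a muscarinic receptor, was at 62.8, 64.5, 0 and 0.151 FPKM in LS cells and at 32.1, 66.4, 1.38, 0.884, 7.30 and 162 FPKM in NS cells.

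Some genes known from glia also differed between the groups. Apod was at 86.3, 386, 673 and 3063 FPKM in the LS cells and at most 2.32 FPKM in the NS cells. Ptgds, prostaglandin D synthase, was at 1658, 2000, 11460 and 2255 FPKM in the LS cells and at 30.7, 0, 1.82, 1.16, 208 and 59.6 FPKM in the NS cells. Apoe was at 1238, 1147, 1198 and 2166 FPKM in LS cells and at 0, 42.02, 543, 120, 5.70 and 0 FPKM in NS cells. Every LS cell was above every NS cell for these 3 genes among the members, which held for 1.79% of all genes. With LS_8 and NS_10 kept, the log2 ratio of Apod went from 9.21 to 1.24 and that of Apoe from 3.59 to 1.97, both within the limit. Ptgds was above 0 in 28 and Apoe in 30 of the 30 glutamate-marked LS cells.

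Summed over whole marker lists, the levels were as follows. The 13 oligodendrocyte markers in the table, which include Apod and Ptgds, summed to between 1845 and 12152 FPKM in LS cells and between 59.6 and 323 FPKM in NS cells, while Mog was at 0 in all 10 cells. The other 11 of these markers summed to 100, 10.8, 19.4 and 237 FPKM in the LS cells and to 292, 227, 215, 125, 0.805 and 0 FPKM in the NS cells, and the groups overlapped. Over the 10 oligodendrocyte markers that reached the level, 6 were higher in LS and 3 in NS, beside 27.9% and 28.7% of all genes. In the 6 cells 5 and 1 of 6 were, beside 47.0% and 16.9% of all genes. The 12 astrocyte markers summed to between 242 and 2265 FPKM in LS cells and between 0 and 150 FPKM in NS cells, with 5 to 10 and 0 to 6 of them above 0. LS_9, LS_14 and LS_15 had 8, 10 and 9 of them above 0, and LS_39 had 5. Of the 10 astrocyte markers that reached the level, 5 were higher in LS and 0 in NS, beside 27.9% and 28.7% of all genes. In the 6 cells 9 and 0 of 11 were, beside 47.0% and 16.9%, with a median of 4.19 against 2.05 over all genes. The 12 microglial markers summed to 4418 FPKM in LS_39, to between 169 and 820 FPKM in the other LS cells and to between 5.48 and 912 FPKM in NS cells. All 12 reached the level, 9 were higher in LS and 0 in NS, beside 27.9% and 28.7% of all genes. In the 6 cells 3 and 1 of 6 were, near the 47.0% and 16.9% of all genes. These 6 cells leave out LS_39, which was described above by its microglial markers. Tmem119, a microglial marker, was at 28.5, 45.9, 207 and 200 FPKM in the LS cells without an NS read. C1qb was at 0, 97.0, 0 and 1800 FPKM in LS cells and at 887 and 815 FPKM in NS_12 and NS_16. The 13 vessel markers summed to between 14.99 and 270 FPKM in LS cells and between 4.29 and 342 FPKM in NS cells, with Cldn5 at 0 throughout, and the groups overlapped. The 19 excitatory markers beyond the rule summed to between 107 and 670 FPKM in LS cells and between 154 and 1060 FPKM in NS cells. The part of RNA from other cells in the group differences was not tested.

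Likeness between cells was low throughout. Over the 14844 genes with 1 FPKM or more in any member, the Pearson correlation of log2(FPKM + 1) across genes was between 0.20 and 0.46 for pairs of LS cells. It was between 0.15 and 0.23 for pairs of NS_12, NS_13 and NS_16, and between 0.12 and 0.31 for these with LS cells. For NS_6, NS_7 and NS_11 with any other member it was between -0.03 and 0.08. Genes are not independent replicates, and the pairs differ in depth, so these values are a description.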

How the data were processed

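Single V1 neurons were profiled by Smart-seq2. The authors trimmed reads with AfterQC, aligned them to GRCm38 with STAR 2.5.3a, counted with featureCounts and deposited FPKM values made with scater, keeping protein-coding genes. The table held 20183 genes in 63 cells, and 0 columns stayed unused. Of these, 4 rows with repeated names were left out, so 20179 genes were used. Whole reads were recovered from the FPKM steps with GENCODE M21 exon lengths for 12113 genes or a solved length for 6386, and 1684 genes stayed unsolved. Of values below 200 reads in the solved genes, 100.0% came out whole within 0.01. Lengths were accepted by this same criterion, so the rate was partly fixed in advance. The recovered reads were used for sums, CPM and thinning to 140000 reads with seed 11.

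Groups came from the sample titles. Each group is 1 sample, so no test was made. Genes needed a mean of 5 FPKM in a group and a log2 ratio of 2.5 with pseudocount 1. The receptor index used 1031 genes, and motifs were sought in RefSeq start windows. Genes were named when they belong to the lists the text is about, or as the 10 largest and 10 smallest ratios among genes above 0 in 3 of every 4 cells of the higher group with a mean of 20 FPKM there, without class markers, receptor genes and repeated names. Some genes are not reported here. Ribosomal protein genes were matched by symbol. Members and lists were chosen with earlier results of these data known. The ratio and the read recovery were tested on simulated data. Alternatives covered the pseudocount, log means, medians, filters, CPM, cell criteria, thinning and each cell left out. The tools were scipy 1.17.1 and pandas 2.3.3, under Python 3.11.15 with numpy 2.4.6.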

Additional observations from a re-analysis of the deposited data

Results flagged for a closer look

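A cell was set apart when its gap to the nearest other cell of its group exceeded Dixon's limit for log2(FPKM + 1) of a named gene or for a cell-level measure. Of 146 groups examined, 34 had such a cell, 15 among LS and 19 among NS cells. Many of these groups hold a single cell above 0, where the gap is the whole range and the flag was fixed in advance. The limit flags about 1 group in 20 by chance only for continuous normal values, so the count of 34 cannot be set against that rate. The cells are not replicates. NS_16 stood apart with 249 FPKM for Tac2, 9164 FPKM for Sst, 0.141 FPKM for Adarb2, 1.31 FPKM for Npas1, 21.03 FPKM for Lhx6, 42.7 FPKM for Sox6, 15.9 FPKM for Btg2 and 626 FPKM for Gria1. NS_13 stood apart with 7.59 FPKM for Htr3a and 3.77 FPKM for Mgp. LS_14 stood apart with 358 FPKM for Calb2, 284 FPKM for Npy, 50.3 FPKM for Egr3 and 35.9 FPKM for Pex3. NS_12 stood apart with 242 FPKM for Chat, 1.17 FPKM for Prkag1 and 2.51 FPKM for Klf4. LS_39 stood apart with 0.335 FPKM for Lamp5, 0.318 FPKM for Atp1b1, 2166 FPKM for Apoe and 0 FPKM for Id2. LS_9 stood apart with 25.2 FPKM for Lhx6, 0.702 FPKM for Grik1 and 1.12 FPKM for Megf6. NS_7 stood apart with 152 FPKM for Egr3 and 287 FPKM for Egr4. LS_15 stood apart with 3.39 FPKM for Egr4, 11460 FPKM for Ptgds, 0.483 FPKM for Mink1 and 3.001 FPKM for Garnl3. NS_11 stood apart with 4.47 FPKM for Actb and 1.67 FPKM for Id3. NS_6 stood apart with 275 FPKM for Cxcl14 and 5.55 FPKM for Gabra4.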

How the results depend on the processing

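Of 83 recomputed values of the main results, 75 stayed within the spread of cells or within 1.5 times the count. These limits were wide, with an SD of 2029 for the LS excess of 1925 genes and 1.95 for the immediate-early median of 2.59. Counts were compared as such, although the number of genes tested differed between settings. The count higher in LS without LS_39, NS_6, NS_7 and NS_11 thus stayed within its limit, while its share went from 27.9% to 47.0%. A minimum of 1 FPKM for the markers of the cell criteria kept the same 10 cells, so its values could not differ. Genes higher in LS numbered 1472 and genes higher in NS 143 with means of log2(FPKM + 1), 1281 and 1520 with a mean of at least 20 FPKM, and 2798 and 278 with medians. With thinning to 140000 reads they numbered 2977 and 2948 of 10392 tested. The immediate-early median was then 2.38 and the LS excess 1859 genes. In cells with a receptor-gene level under 10%, 3484 genes were higher in LS and 1370 in NS, of 6763 tested. The main setting tested 10099. In settings chosen after seeing the data, the counts were 3949 and 1419 of 8408 without LS_39, NS_6, NS_7 and NS_11. They were 3765 and 1480 of 8160 without the 3 NS cells. With each cell left out, genes higher in LS ranged from 2308 to 3223, genes higher in NS from 2345 to 3479, the LS excess in genes above 1 FPKM from 1278 to 2876, around 1925, and the immediate-early median from 1.97 to 2.997. The median ratio of all genes was -0.18, but 0.58 with log means, 2.65 with a receptor-gene level under 10% and 1.86 without the 3 NS cells. Of 56 named genes past the limit, 51 did not change sign under any alternative and 28 stayed past the limit. With LS_8 and NS_10 kept, Dusp1, Grik1, Apod, Apoe and Zfp36l1 were no longer past it. Nor were Htr3a, Calb2, Nptxr, Pex3, Atp1b1 and Gabra4 without LS_14, Dusp1 and Klf4 without LS_15, Fosb and Eef1a1 without LS_39, Slc32a1 without NS_11, Egr4 without NS_7, Npy and Chat without NS_12, and Sst, Sox6 and Gria1 without NS_16. With a receptor-gene level under 10%, log2 ratios turned to 0.20 for Npy and 1.09 for Egr4. Egr4 was at 1.09 in the 6 cells and 0.89 without the 3 NS cells. Gria1 was at 0.0021 with log means and 2.29 with medians, where Slc32a1 was at 0.72. With a cell left out, ratios ranged from -3.69 to 3.97 for Calb2, -5.61 to 0.89 for Egr4, -10.12 to 0.049 for Npy and -4.79 to 1.29 for Gria1. The counts fell with a higher filter because fewer genes were tested, and the other causes were not tested. No paired analysis was possible because the result comes from no test and cells share only numbers. Fewer than 7 cells a group and shallow NS cells limit what can be detected.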

Other observations

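Genes that follow sustained activity later than the immediate-early set were few. Of 15 such genes, 10 reached a mean of 5 FPKM in either group, 4 were higher in LS and 1 in NS, beside 27.9% and 28.7% of all genes, with a median log2 ratio of 0.88. In the 6 cells without LS_39, NS_6, NS_7 and NS_11, 5 and 0 of 9 were, beside 47.0% and 16.9% of all genes, with a median of 3.01 against 2.05. Vgf, a secreted neuropeptide precursor, was at 73.4, 240, 108 and 0 FPKM in the LS cells and at 3.79, 3.29, 0, 0, 0 and 30.8 FPKM in the NS cells. Gphn, which anchors GABA-A and glycine receptors, was at 18.2, 12.1, 14.3 and 2.02 FPKM in LS cells and at 2.88 FPKM in NS_7 alone among the NS cells. Of 9 genes of the parvalbumin class, 6 reached the level, 0 were higher in LS and 2 in NS (0 and 1 of 4 in the 6 cells), and of 9 genes of the somatostatin class, 5 reached the level, with 1 and 2 (1 and 2 of 4 in the 6 cells). Beside these counts stand 27.9% and 28.7% of all genes, and 47.0% and 16.9% in the 6 cells. Of 4 oligodendrocyte precursor markers, 3 reached the level and all 3 were higher in NS, beside 28.7% of all genes (none reached it in the 6 cells). Pdgfra was at 47.5 FPKM in NS_11 and 1.46 FPKM in NS_7 and at 0 in all other members. The 5 blood markers summed to at most 57.6 FPKM in any member.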
